A study of Mus musculus with 7 samples.

Results

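Hypothalamic neurons signal with short peptides cut from larger precursors, and most of those peptides act on G-protein-coupled receptors. A set of 39 such genes was examined here in the ventrolateral ventromedial hypothalamus (VMHvl), 16 for peptide precursors and 23 for receptors and a binding protein, of 48321 genes in the deposited tables. They were chosen by symbol and cover the PACAP, VIP, somatostatin, corticotropin-releasing factor (CRF), thyrotropin-releasing hormone (TRH), neurotensin, orexin and melanin-concentrating hormone (MCH) systems. Also covered are the kisspeptin, growth hormone-releasing hormone (GHRH), CART, granin, galanin and prokineticin systems. The orphan or less-studied receptors Qrfpr, Npffr2, Prlhr and Gpr83 complete the set. All 39 symbols were present in each of the 7 tables.

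The mice were ovariectomized females on a mixed genetic background that goes back to a floxed Esr1 line with 129/Sv lineage. Ovariectomy, which removes the main source of circulating estrogen, was common to both groups. Vehicle was given to 3 mice and 1 µg of estradiol benzoate (EB, an ester of estradiol) to 4 mice, by subcutaneous injection, and the region was dissected by hand 4 hours later. Each library was 1 mouse, so the spread between replicates is spread between animals and dissections. The comparison asks which of these transcripts differ soon after estrogen replacement.

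The VMH is a glutamatergic nucleus whose neurons are rich in PACAP, and it is bordered by nuclei that are defined by other peptides. Orexin (Hcrt) and MCH (Pmch) are made in the lateral hypothalamus, GHRH and kisspeptin in the arcuate nucleus, and CRF and TRH in the paraventricular nucleus. Galanin is a classical estrogen-induced peptide of the pituitary and hypothalamus. In whole tissue, fewer cells of a type and less RNA per cell cannot be told apart.

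Library totals ran from 21037303 to 33302293 counts. The labelled region was checked against marker genes. Slc17a6, which loads glutamate into synaptic vesicles, stood between 434 and 715 CPM (library-scaled counts after TMM normalisation) and Fezf1, a VMH transcription factor, between 108 and 152 CPM over the 7 mice. Nr5a1, which defines the VMH in development, was low at 0.93 to 3.51 CPM. The summed level of 10 VMH markers was 1301 to 1451 CPM with vehicle and 1554 to 1631 CPM with EB, without overlap. The sum rests mostly on Slc17a6 and Dlk1, and the other 8 markers summed to 366 to 463 CPM with vehicle and 366 to 455 CPM with EB, a split made after their values were seen. The level of 9 VMHvl markers, summed, was 840 to 1307 and 919 to 1091 CPM. Of these 9, 5 were themselves called with EB (Pgr, Cckar, Mc4r and Npy1r higher, Oxtr lower), so their sum is not a measure of region alone. In the VMHvl list vehicle 2 stood apart at 1307 CPM. Mural cell and fibroblast markers summed to 467 CPM in vehicle 1 and 370 CPM in EB 4, and 216 to 299 CPM elsewhere. Blood markers summed to 32.7 CPM in vehicle 1 and 5.55 to 15.7 CPM in the rest. Pituitary markers summed to 31.2 CPM in EB 4 and 3.72 to 16.1 CPM in the rest. The part of these differences in the member values was not tested.

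No member passed the test over all genes. EdgeR's quasi-likelihood test tested 33 of the 39 members and called 0 higher and 0 lower with EB at a Benjamini-Hochberg adjusted p under 0.05, against 0.952% of the 18387 genes tested, 0.745% higher and 0.207% lower. The smallest adjusted p of any member was 0.175, for Gal. At an unadjusted p under 0.05 there were 6 members with higher estimates (Gal, Crhbp, Hcrtr1, Cartpt, Scg2 and Sstr2) and 2 with lower ones (Adcyap1 and Gpr83), where 9.04% of all tested genes reached that level, 4.87% with higher and 4.18% with lower estimates. Of the tested members 3 had groups without overlap (Gal, Crhr1 and Hcrtr1), against 9.1% of all tested genes. DESeq2 called 1 member, Gal, where it called 1.96% of the genes it gave an adjusted p, and limma-voom called 0 members against 0.816% of genes. Members under the count filter (6 of 39) were not tested, and the filter favours genes that are high in at least 1 group, so these counts describe the 33 only.

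The estimates were mostly small for the abundant members and imprecise for the scarce ones. Pmch was an exception, with 173 to 1139 counts per library and the largest SE of the tested members (log2 −0.06 ± 0.86). The median log2 change was 0.08 over the tested members, 0.12 over 12 precursors and −0.04 over the 21 receptor and binding protein genes, beside −0.01 over all tested genes. The 95% interval of the change, taken gene by gene without adjustment, lay within 1.5-fold in either direction for 12 members (Adcyap1, Sst, Nts, Cartpt, Vgf, Scg2, Adcyap1r1, Ntsr2, Hcrtr2, Galr1, Qrfpr and Gpr83). It reached beyond 2-fold for 13 members, so for these a change of that size lay within the uncertainty.

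**Figure D1:**
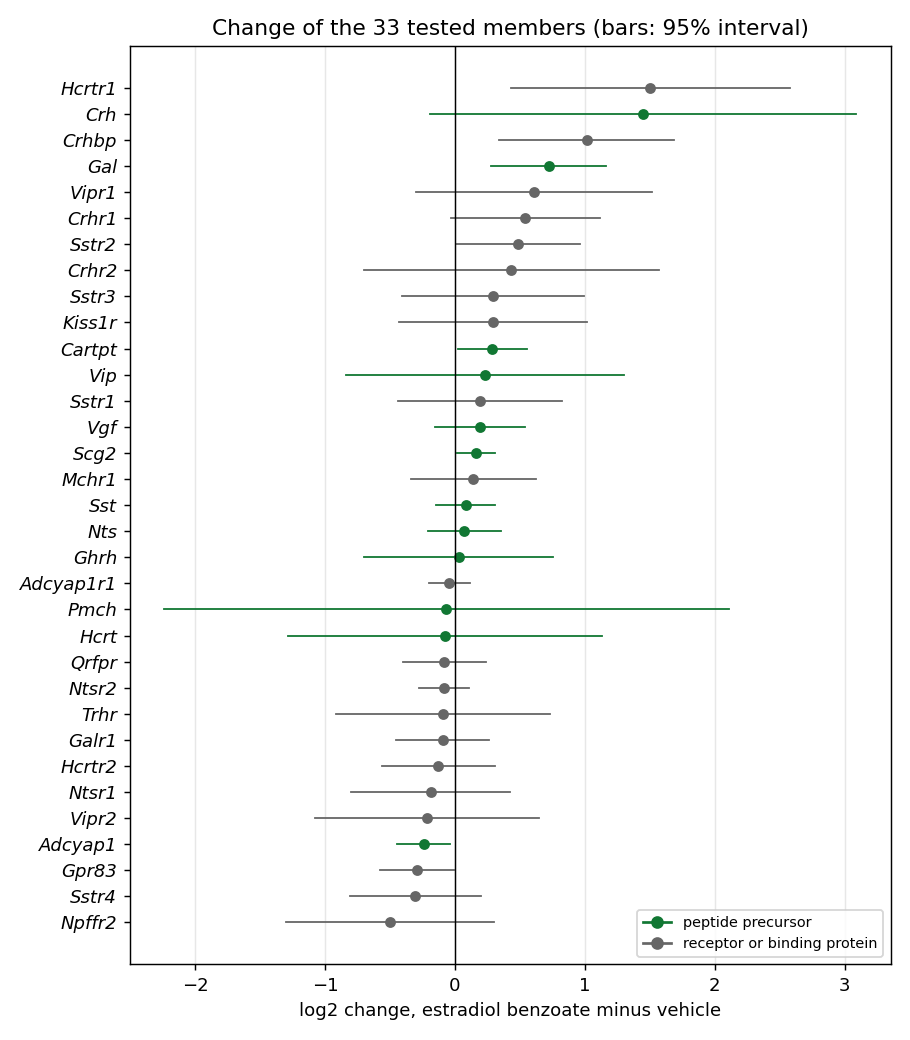
Log2 change (EB minus vehicle) of the 33 tested members from edgeR, with points for the estimate and bars for the unadjusted 95% interval, peptide precursors in green and receptors or binding protein in grey. Hcrtr1, Crh, Crhbp and Gal have the highest estimates, and Pmch, Crh, Hcrt and Hcrtr1 have wide bars.

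Levels spanned several orders of magnitude when counts were scaled by exon length, the only scale on which genes were compared with each other. Scg2, the precursor of secretogranin II and secretoneurin in dense-core granules, was the most abundant member at 388 CPM per kilobase (mean of 7 mice, 357 to 444) and ranked 24 among 29899 genes with a count and a length. Sst, the somatostatin precursor, followed at 152 CPM per kilobase (129 to 179, rank 91). Scg2 was above Sst, and Sst above Adcyap1, in 7 of 7 mice. Cartpt, the CART precursor, stood at 53.8 CPM per kilobase (41.6 to 68.9) and Adcyap1, the PACAP precursor, at 41.1 (33.5 to 49.5). Those ranges overlapped, and Adcyap1 was the higher of the pair in 1 of 7 mice. The order of this pair depends on the lengths used, 3777 bases for Adcyap1 and 1277 bases for Cartpt. A length was the union of all annotated exons of a gene, not that of the transcripts present.

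Among receptors the order was led by Adcyap1r1, the PACAP-specific receptor, at 43.6 CPM per kilobase (38.0 to 46.5). Next came Ntsr2, the low-affinity neurotensin receptor known from astrocytes, at 35.4 (29.5 to 39.3), and Gpr83, a receptor for a peptide of the proSAAS precursor, at 25.2 (21.9 to 35.7). The ranges of Ntsr2 and Gpr83 overlapped. Qrfpr, the receptor for the RFamide peptide QRFP, was at 12.9 CPM per kilobase (10.4 to 16.6) and below Gpr83 in 7 of 7 mice. The other 19 receptor and binding protein genes had means of 6.14 CPM per kilobase or less.

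**Figure D2:**
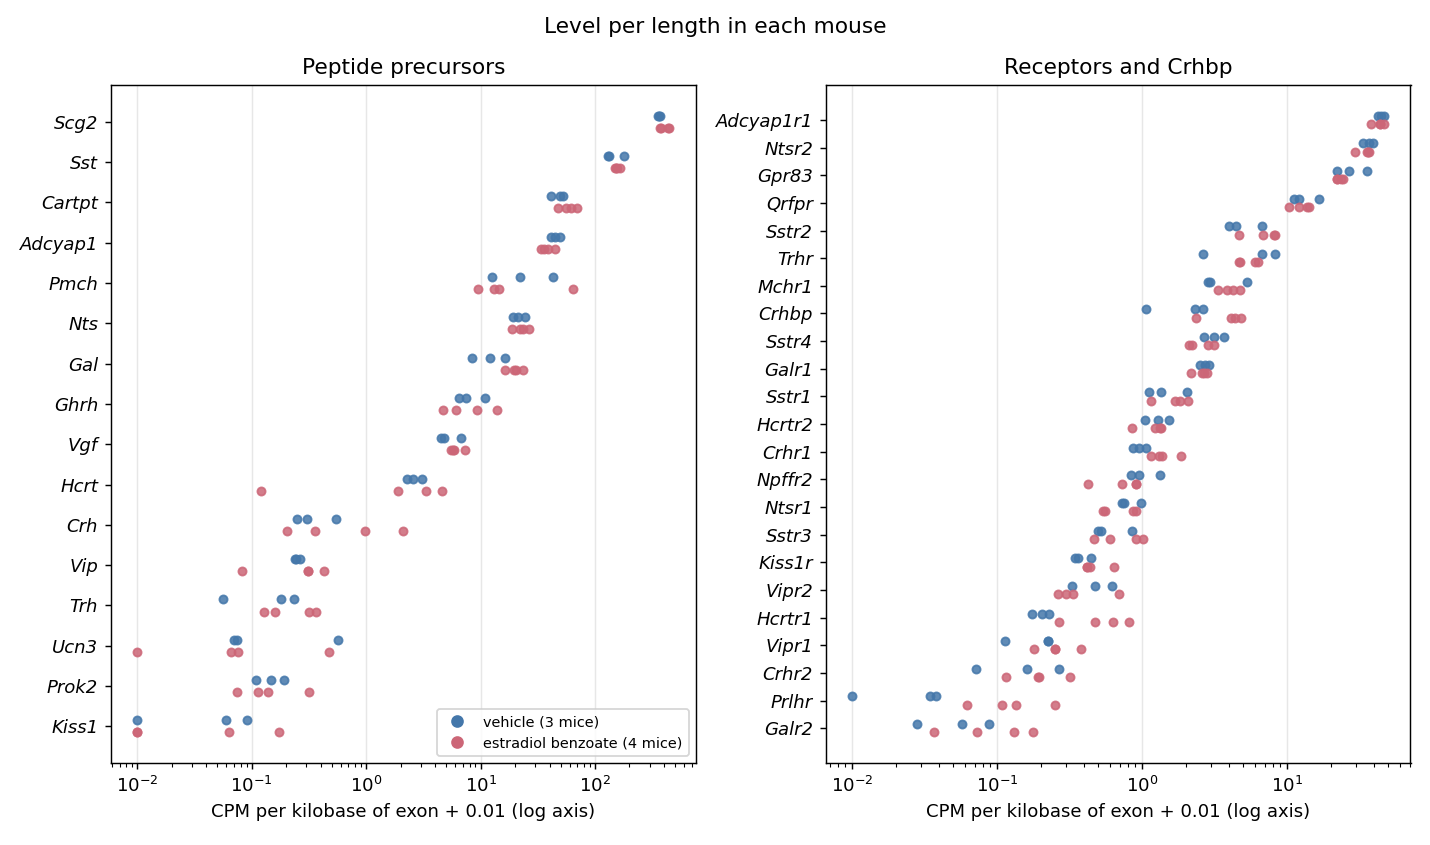
Level per length of the 39 members in each mouse, as CPM per kilobase of exon plus 0.01 on a log axis, with vehicle mice in blue and EB mice in red; a value of 0 sits at 0.01. Scg2 and Sst lead the precursors and Adcyap1r1, Ntsr2 and Gpr83 the receptors, while Kiss1, Galr2 and Prlhr sit at the bottom.

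The start sites of members were searched for the letters of 2 hormone and second-messenger elements. RefSeq upstream sequence (GRCm38.p6, the mm10 assembly) was available for 34 members, and the 250 bases before each start were read on both strands. The full cAMP response element TGACGTCA, an element first described in the somatostatin gene, was found before 4 of the 34 members, or 11.8%, against 1.77% of 27025 genes. These were Sst, Scg2, Cartpt and Sstr2, all shown here. Scg2, Cartpt and Sstr2 are among the 6 members with higher estimates at an unadjusted p under 0.05, while Sst had an adjusted p of 0.898 by edgeR. None of the 4 was called, and a link between the element and EB was not tested. The element is in capitals with 11 bases on either side, 5′ to 3′ in the direction of the gene.
Sst (chr16:23890874-23890903, minus strand, element starting 48 bases before the start): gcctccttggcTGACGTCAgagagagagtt
Scg2 (chr1:79440076-79440105, minus strand, 68 bases before the start): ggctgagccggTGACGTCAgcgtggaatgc
Cartpt (chr13:99900777-99900806, minus strand, 112 bases before the start): ccggcgggcatTGACGTCAaacggcagcgg
Sstr2 (chr11:113619258-113619287, plus strand, 58 bases before the start): ccaagctgccgTGACGTCAcgggcgggggc
The windows before Sst, Scg2 and Cartpt overlap an exon of GENCODE, whose transcripts begin further upstream. The shorter letters TGACG of the cAMP element, read on either strand, were found before 16 members, or 47.1%, against 19.8% of genes. That count includes the 4 with the full element. The full estrogen response element, GGTCA and TGACC with 3 bases between them, was found before 0 of 34 members and 0.0666% of genes. Its single arm GGTCA, read on either strand, was found before 13 members, or 38.2%, against 38.4% of genes. These letters are a description and were not tested for binding.

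Galanin was the precursor with the most separate groups. Gal (chr19:3409915-3414544, minus strand) stood at 9.60, 6.56 and 12.8 CPM in vehicle 1 to 3 and at 18.7, 12.9, 15.9 and 15.5 CPM in EB 1 to 4. All EB mice were above all vehicle mice, although EB 2 and vehicle 3 nearly met. The means were 9.64 ± 3.11 CPM with vehicle (SD, n = 3) and 15.7 ± 2.37 CPM with EB (SD, n = 4), a 1.65-fold difference (log2 0.72 ± 0.21, SE). EdgeR gave an adjusted p of 0.175, limma-voom 0.188 and DESeq2 0.0392, so the call depends on the tool. Without vehicle 2, the lowest mouse, the log2 difference was 0.49 (adjusted p = 0.413), and without vehicle 3 it was 0.97 (adjusted p = 0.0813). The 250 bases before the Gal start hold 1 such arm, 26 bases before the start, in capitals below (chr19:3414545-3414794, minus strand).
Gal: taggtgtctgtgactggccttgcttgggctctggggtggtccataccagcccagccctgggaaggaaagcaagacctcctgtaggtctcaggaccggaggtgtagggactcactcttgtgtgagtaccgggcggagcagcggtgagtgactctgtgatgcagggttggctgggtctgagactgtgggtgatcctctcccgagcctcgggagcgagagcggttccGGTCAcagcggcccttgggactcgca

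The galanin receptors showed no such separation. Galr1, which couples to inhibitory G proteins, was between 7.49 and 8.55 CPM with vehicle and between 6.47 and 8.34 CPM with EB, with a log2 change of −0.09 ± 0.17 (SE, adjusted p = 0.934). Galr2 was near the limit of detection at 1 to 10 counts per library and was not tested. Per length, Gal was above Galr1 and Galr1 above Galr2 in 7 of 7 mice.

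In the CRF system the binding protein, the receptor Crhr1 and the scarce peptide Crh all had higher estimates, none of them called in the main test. Crhbp, a secreted protein that sequesters CRF and urocortins (chr13:95431371-95444924), was at 4.70, 1.90 and 4.14 CPM in vehicle 1 to 3 and at 7.42, 8.59, 4.21 and 7.90 CPM in EB 1 to 4. Only EB 3 lay within the vehicle range, and vehicle 2 was the lowest of all. The estimate was 2.02-fold (log2 1.01 ± 0.31, SE) with an adjusted p of 0.227 by edgeR and 0.0812 by DESeq2. It was 0.68 without vehicle 2 and 1.30 without vehicle 1.

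Crhr1, the main CRF receptor of the brain, was at 2.33, 2.60 and 2.11 CPM with vehicle and 3.20, 3.33, 4.51 and 2.80 CPM with EB. The groups did not overlap, and the log2 difference was 0.54 ± 0.27 (SE, adjusted p = 0.585). Crhr2, which prefers urocortins, was between 0.317 and 1.57 CPM over the 7 mice with overlapping groups. Its log2 estimate was 0.43 ± 0.53 (SE, adjusted p = 0.889). Per length Crhr1 was above Crhr2 in 7 of 7 mice and Crhbp above Crhr1 in 6 of 7.

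Crh was at 0.389, 0.317 and 0.705 CPM with vehicle and at 0.457, 2.74, 0.253 and 1.28 CPM with EB. EB 2 (89 counts) and EB 4 (31 counts) were above every vehicle mouse and EB 3 (6 counts) was below them all. The log2 estimate of 1.45 ± 0.76 (SE, adjusted p = 0.621) became 0.52 without EB 2. Ucn3, the urocortin 3 precursor, was not tested. It had 21 counts in vehicle 1 and 22 in EB 2 but 0 to 3 counts in every other library.

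The orexin receptors differed from each other in both level and estimate. Hcrtr1, which prefers orexin A (chr4:130130217-130139359), was at 0.428, 0.507 and 0.572 CPM in vehicle 1 to 3 and 1.21, 2.09, 0.674 and 1.61 CPM in EB 1 to 4. Every EB mouse was above every vehicle mouse, by a small margin in EB 3, and the values rest on 11 to 16 counts per vehicle library and 16 to 68 per EB library. The estimate was 2.84-fold (log2 1.51 ± 0.50, SE, adjusted p = 0.280 by edgeR and 0.197 by DESeq2), with an unadjusted 95% interval from 1.35-fold to 5.98-fold. Hcrtr2, which binds both orexins, was between 5.19 and 9.45 CPM with overlapping groups and a log2 change of −0.13 ± 0.20 (SE). Per length Hcrtr2 was above Hcrtr1 in 7 of 7 mice, by 1.37 to 9.35 times. Crhbp and Hcrtr1 each have 1 arm of the estrogen element upstream, in capitals below in the direction of the gene, shown because both were among the 4 highest estimates. The arm was as frequent before the members as before all genes, and the Hcrtr1 window overlaps a GENCODE exon.
Crhbp (chr13:95444967-95444993, minus strand, 151 bases before the start): ctatgcgttcaGGTCActaggtcctcg
Hcrtr1 (chr4:130139255-130139281, minus strand, 108 bases before the start): ctccagctgggTGACCtcgagtgcaga

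**Figure D3:**
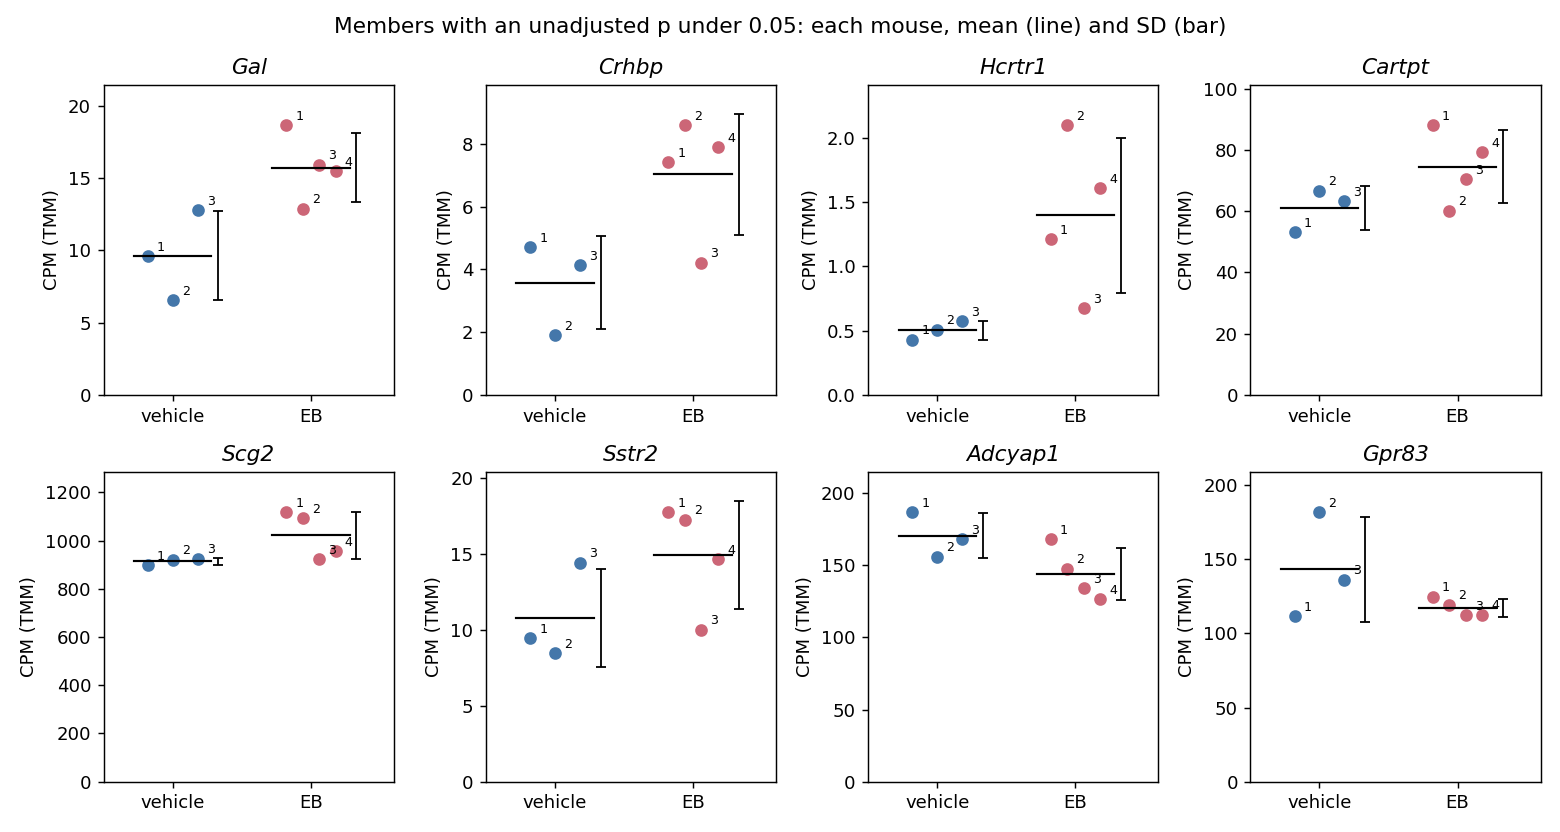
CPM (TMM) of the 8 members with an unadjusted p under 0.05 in each mouse, numbered by replicate, with the group mean as a line and the SD as a bar; axes start at 0. Vehicle and EB mice are separate for Gal and Hcrtr1 and overlap for the other 6 members.

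PACAP and its receptor were both abundant, and the precursor had a lower estimate with EB. Adcyap1 was at 187, 156 and 168 CPM in vehicle 1 to 3 and 168, 148, 134 and 126 CPM in EB 1 to 4. EB 1 lay within the vehicle range and the other EB mice lay below it. The log2 change was −0.24 ± 0.10 (SE, adjusted p = 0.433). It was −0.11 without vehicle 1 and EB 4 together, the mice with the most and the least Adcyap1. Adcyap1 is itself a VMH transcript, and VMH markers had estimates of both signs: the log2 change was 0.34 for Slc17a6, −0.13 for Fezf1 and −0.56 for Nkx2-1. Over the 10 VMH markers the median was 0.22, and Nptx2 was the 1 called, higher with EB (log2 1.17, adjusted p = 0.00186). The part of this in the Adcyap1 value was not tested. Adcyap1r1 was at 279 to 307 CPM with vehicle and 251 to 306 CPM with EB (log2 −0.04 ± 0.07, SE). Its interval, 0.871-fold to 1.08-fold, was the narrowest among the tested receptors. The VIP receptors Vipr1 and Vipr2 were scarce, and Adcyap1r1 exceeded Vipr2 by 64.4 to 151 times and Vipr1 by 118 to 448 times per length.

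Somatostatin showed little difference beside 1 of its receptors. Sst was at 95.4, 93.2 and 129 CPM with vehicle and 107, 113, 119 and 109 CPM with EB, so the EB mice lay inside the vehicle range (log2 0.08 ± 0.10, SE, adjusted p = 0.898). Sstr2, the most abundant somatostatin receptor here, was at 9.45, 8.46 and 14.4 CPM with vehicle and 17.8, 17.3, 10.03 and 14.7 CPM with EB. Vehicle 3 exceeded EB 3, and the estimate was 1.40-fold (log2 0.49 ± 0.22, SE, adjusted p = 0.539). Per length Sstr2 was above Sstr4, Sstr4 above Sstr1 and Sstr1 above Sstr3 in 7 of 7 mice. However, the lowest ratio of Sstr2 to Sstr4 was 1.08 and that of Sstr4 to Sstr1 was 1.02. Each gene had the same length in every mouse, so the order depends on these lengths. They were 1424 bases for Sstr4, 2046 for Sstr1 and 4320 for Sstr3. Sstr1, Sstr3 and Sstr4 had log2 changes between −0.31 and 0.29, with groups that overlapped.

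Cartpt, Scg2 and Vgf had small positive estimates. Cartpt, which marks anorexigenic hypothalamic neurons, was at 53.1, 66.7 and 63.3 CPM with vehicle and 88.0, 60.1, 70.5 and 79.3 CPM with EB. EB 2 lay within the vehicle range and the other EB mice were above it, for a 1.22-fold difference (log2 0.29 ± 0.12, SE, adjusted p = 0.497). Scg2 was at 898, 920 and 925 CPM with vehicle and 1118, 1094, 921 and 956 CPM with EB. The vehicle mice differed from each other by little (SD 14.4 CPM), EB 1 and EB 2 were well above them, and EB 3 lay among them. The estimate was 1.12-fold (log2 0.16 ± 0.07, SE, adjusted p = 0.480). Vgf, a neurotrophin-inducible granin that is also a peptide precursor, was between 13.5 and 20.1 CPM with vehicle and 16.4 and 21.6 CPM with EB (log2 0.20 ± 0.16, SE). Scg2 was above Vgf by 54.4 to 80.7 times per length.

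Gpr83 had a lower estimate that rests on 1 vehicle mouse. It was at 112, 182 and 136 CPM in vehicle 1 to 3 and at 125, 119, 112 and 113 CPM in EB 1 to 4. The EB mice were tightly grouped (SD 6.03 CPM, against 35.6 CPM with vehicle) and vehicle 1 was just below the lowest of them. The log2 change of −0.29 ± 0.13 (SE, adjusted p = 0.537) was −0.08 without vehicle 2 and −0.45 without vehicle 1 (adjusted p = 0.0750). Vehicle 2 was also the mouse with the highest VMHvl marker sum and the highest Esr1, estrogen receptor alpha, at 317 CPM against 160 to 231 CPM in the rest. The part of that difference in the Gpr83 value was not tested. The same mouse was lowest for Trhr, Crhbp and Gal.

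Neurotensin, TRH and the other receptors gave values that overlapped between groups. Nts was at 26.5, 23.9 and 30.3 CPM with vehicle and 32.96, 29.0, 27.6 and 23.4 CPM with EB, so the groups overlapped throughout (log2 0.07 ± 0.13, SE). Ntsr2 stood between 92.2 and 123 CPM and exceeded Ntsr1, the high-affinity neuronal receptor, by 34.8 to 70.4 times per length. Trhr, the TRH receptor, was at 32.8, 10.5 and 26.6 CPM with vehicle and 23.9, 25.3, 18.9 and 18.6 CPM with EB, and vehicle 2 stood well below the rest. Its ligand Trh was scarce and not tested, with 6, 2 and 7 counts with vehicle and 5, 16, 10 and 5 counts with EB. Per length Trhr was above Trh in 7 of 7 mice. Qrfpr (22.7 to 36.3 CPM) had a log2 change of −0.08 ± 0.15 (SE), and Npffr2, a receptor for neuropeptide FF (0.674 to 2.15 CPM), one of −0.50 ± 0.37 (SE, adjusted p = 0.767).

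Kiss1, Prok2 and Prlhr were at the edge of detection. Kiss1, the kisspeptin precursor, had 1, 2 and 0 counts with vehicle and 0, 0, 3 and 1 counts with EB, where 3 counts in a library correspond to 0.0924 to 0.132 CPM. All of its exon bases are shared with Gm28040 in the annotation, so some reads may have been left uncounted or counted there. Its receptor Kiss1r was between 1.28 and 1.68 CPM with vehicle and 1.57 and 2.43 CPM with EB (log2 0.29 ± 0.34, SE), and 247 bases of its exons overlap R3hdm4 on the other strand, so that reads there could be divided differently. Prok2, the prokineticin 2 precursor, had 52 counts in all. Prlhr, the prolactin-releasing peptide receptor, had 1, 0 and 1 counts with vehicle and 6, 5, 9 and 2 counts with EB; every EB library was above every vehicle library, at counts too low for the test.

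Peptides that define the neighbouring nuclei had high values in single mice of either group. Pmch was at 16.7, 31.9 and 9.42 CPM in vehicle 1 to 3 and at 10.9, 9.73, 48.0 and 7.12 CPM in EB 1 to 4. EB 3 and vehicle 2 stood far above the rest, 1 in each group, and the log2 change was −0.06 ± 0.86 (SE, adjusted p = 0.993). Of the 749 exon bases of Pmch, 435 overlap Parpbp on the other strand, and the use of strand in counting is not given in the sources used here. Mchr1, the MCH receptor, was between 6.26 and 11.5 CPM in all mice (log2 0.14 ± 0.22, SE).

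Hcrt was at 1.90, 1.71 and 2.29 CPM with vehicle and 2.48, 1.42, 3.41 and 0.0823 CPM with EB. The last value is 2 counts, against 46 to 81 counts in each other library. Lhx9, a transcription factor of orexin neurons, was lowest in the same mouse, EB 4, at 1.07 CPM and highest in EB 3 at 3.24 CPM, where Hcrt and Pmch were highest as well. The summed level of 5 marker genes of orexin and MCH neurons, Parpbp among them, did not follow this order. It was 46.9 to 59.8 CPM with vehicle and 42.0 to 57.7 CPM with EB. EB 3 was the lowest of all 7 mice, with Pdyn (18.5 CPM) and Rfx4 (16.3 CPM) each second lowest there. That sum rests mostly on Pdyn and Rfx4 (22.7 and 20.6 of 50.3 CPM in vehicle 1). It therefore says little about the scarcer genes of the list, Lhx9 among them. How much of the Hcrt and Pmch values reflects the tissue taken was not tested.

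Ghrh, the GHRH precursor of the arcuate nucleus, was at 4.94, 4.34 and 7.22 CPM with vehicle and 4.05, 3.11, 9.27 and 6.26 CPM with EB. EB 3 was the highest and EB 2 the lowest of all (log2 0.03 ± 0.34, SE). The arcuate genes Npy (9.39 CPM) and Agrp (1.81 CPM) were also high in EB 3, and Agrp was highest in EB 4 (2.30 CPM), while the summed level of 11 arcuate markers was 580 to 696 CPM with vehicle and 528 to 591 CPM with EB. That sum rests mostly on Prlr, at 389 to 544 CPM, and Isl1 of the same list was itself called lower with EB (log2 −1.18, adjusted p = 0.00249). With the mean log2 level of the 11 markers, a measure other than their sum, as a covariate the Ghrh estimate was −0.19.

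Vip, best known from the suprachiasmatic nucleus, was at 0.777, 0.855 and 0.793 CPM with vehicle and 1.01, 1.42, 1.01 and 0.247 CPM with EB; EB 4 was the lowest and the other EB mice were above the vehicle range. Markers of paraventricular, supraoptic and suprachiasmatic neurons were uneven. Their summed level was 531 CPM in vehicle 3 against 143 to 298 CPM in the other mice, chiefly through Avp, the vasopressin precursor, at 306 CPM. Avp was next highest in EB 2 (136 CPM) and EB 4 (108 CPM), and these 3 mice were also the ones with the most Crh. Other genes of the list did not all follow Avp. Sim1 was highest in vehicle 3 (9.82 CPM) and EB 2 (4.96 CPM), but Sim1 (1.81 CPM) and Pou3f2 (16.3 CPM) were each lowest of all in EB 4. The part of this unevenness in the Crh estimate was not tested.

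**Figure D4:**
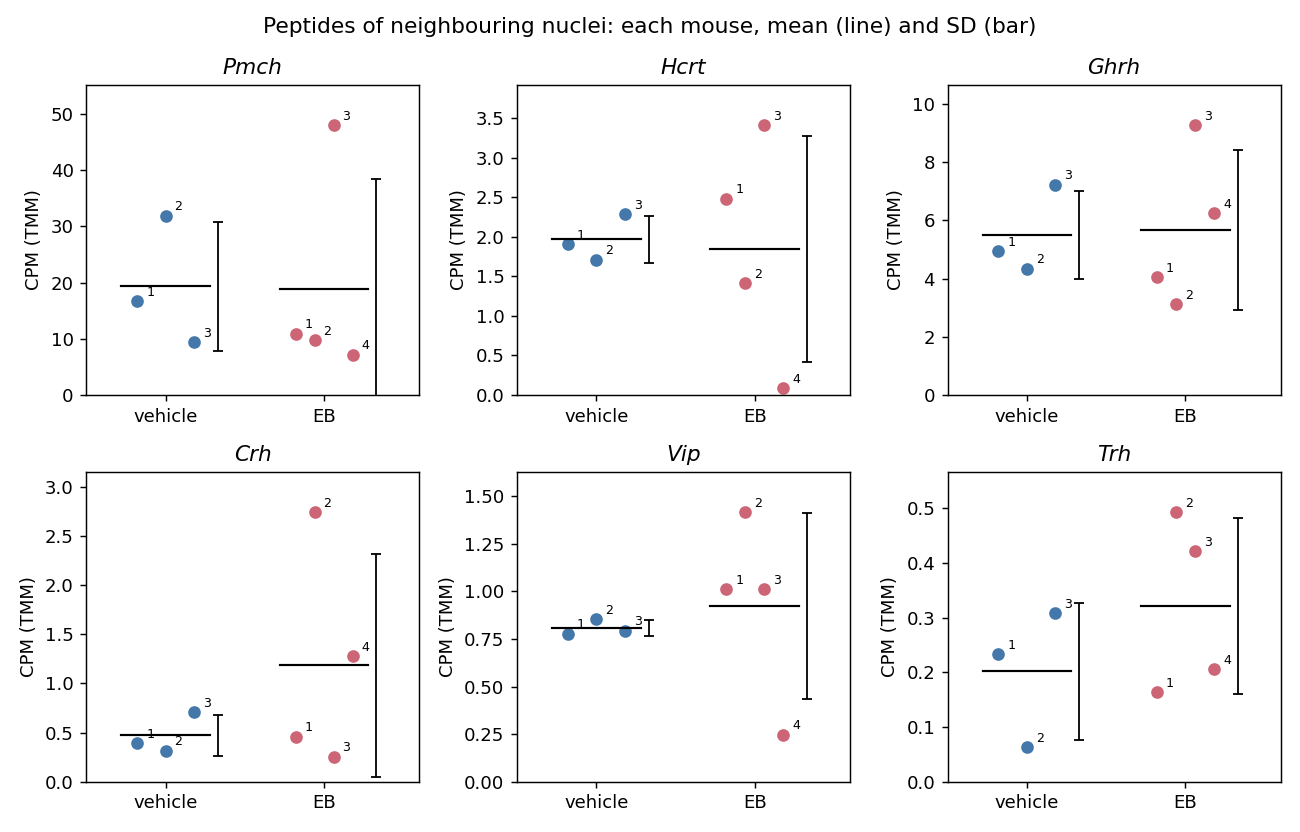
CPM (TMM) in each mouse of 6 peptide precursors of neighbouring nuclei, numbered by replicate, with the group mean as a line and the SD as a bar that ends at the axis where it would pass below 0. Single mice stand apart: EB 3 and vehicle 2 for Pmch, EB 4 for Hcrt and Vip, and EB 2 for Crh.

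Related ligands, receptors and processing genes gave no calls by edgeR either. Of 21 family counterparts, 20 were in the tables and 8 were tested, with a median log2 change of −0.04. EdgeR called 0 and limma-voom 0, while DESeq2 called 1, the same gene that had an unadjusted p under 0.05. This was Npffr1, the other neuropeptide FF family receptor, at 15.7, 15.5 and 18.8 CPM with vehicle and 26.2, 29.9, 17.1 and 30.7 CPM with EB. EB 3 lay within the vehicle range and the other EB mice were well above it (log2 0.65 ± 0.18, SE, adjusted p = 0.166 by edgeR and 0.0241 by DESeq2). Without EB 3 edgeR called it as well. Per length Npffr1 was above Npffr2 in 7 of 7 mice. Next by p were Prokr1 and Sctr, with adjusted p of 0.675 and 0.788.

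For the next 2 lists, the estimate was negative for 51.6% of all tested genes, 4.18% had a lower estimate at an unadjusted p under 0.05 and 9.1% had no overlap. Genes that process and package peptides had more negative than positive estimates. All 19 were tested, 14 with negative changes, with a median of −0.04, and edgeR, DESeq2 and limma-voom each called 0. There were 4 with an unadjusted p under 0.05, and all 4 had lower estimates. Cpd, carboxypeptidase D, was at 171 ± 6.20 CPM with vehicle (SD, n = 3) and 145 ± 10.5 CPM with EB (SD, n = 4), without overlap (log2 −0.24 ± 0.07, SE, adjusted p = 0.211). Cpe, the main carboxypeptidase of neuropeptide precursors, was at 1083 ± 27.98 and 995 ± 28.8 CPM, and Qpct, which forms the pyroglutamate end of peptides such as TRH and neurotensin, at 45.0 ± 1.61 and 36.3 ± 5.20 CPM (SD, n = 3 and 4), also without overlap. Their adjusted p were 0.435 and 0.360. Of 13 peptide-degrading enzymes, 12 had negative changes (median −0.13). EdgeR, DESeq2 and limma-voom each called 0, and 0 had an unadjusted p under 0.05. The smallest p was that of Thop1, thimet oligopeptidase, at 7.98 ± 0.137 and 9.58 ± 0.562 CPM (SD, n = 3 and 4), the 1 enzyme with a higher estimate (adjusted p = 0.660). Next were Prep and Enpep.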

How the data were processed

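RNA-seq libraries from the VMHvl of 3 vehicle and 4 EB mice were analysed. The authors deposited raw counts per gene, whole numbers with no normalisation. HISAT2, HTSeq, DESeq2 and mm10 are named in the submitters' processing notes; versions, annotation, strand use and the treatment of multiply mapped reads: not given in the sources used here. Genes were kept by filterByExpr (minimum count 10), which left 18387 of 31222 with any count, normalised with TMM, and edgeR 4.0.16 gave the main test (R 4.3.3; estimateDisp, robust glmQLFit with the current dispersion method, glmQLFTest, no covariate). Calls used 0.05 as the limit on p after Benjamini-Hochberg adjustment across every tested gene; adjusted p are edgeR's unless another tool is named. SE is the absolute log2 change over the square root of F; intervals are 95%. The biological coefficient of variation was 22.3%. Lengths (exon unions) and positions are from GENCODE M21 of GRCm38, and upstream sequences from RefSeq (GRCm38.p6). Alternatives were DESeq2 1.42.0, limma-voom (limma 3.58.1), other scalings, filters and fits, an arcuate covariate and left-out libraries. The fit with the older dispersion method and the removal of vehicle 1 and EB 4 together were chosen after seeing the data. Replicate numbers follow deposit order and only name mice. The members, lists and rules were chosen with earlier results of these data known. Values in every mouse are given for members at an unadjusted p under 0.05, without overlap or called by any tool, and for the peptides of neighbouring nuclei; from the other lists, up to 3 genes by smallest p. Figures used matplotlib 3.10.9 (Python 3.11.15).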

Additional observations from a re-analysis of the deposited data

Results flagged for a closer look

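In 5 of the 39 members 1 EB mouse lay far from the other 3. The gap exceeded 0.829 of the group's range, Dixon's 95% critical value. For normally distributed values chance gives about 1 in 20 groups, but the rule was run on CPM, also for members near the limit of detection. Only the members were examined, so no share of all genes stands beside this count and it is not read as an excess. The gap was 0.908 of the range for Pmch (EB 3 high at 48.0 CPM), 0.913 for Kiss1r (EB 4 high at 2.43 CPM) and 0.855 for Ucn3 (EB 2 high at 0.678 CPM, 22 counts). It was 0.841 for Vipr2 (EB 1 high at 3.04 CPM) and 0.831 for Vgf (EB 2 high at 21.6 CPM). The 3 vehicle mice were too few for this rule.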

How the results depend on the processing

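EdgeR called 0 members higher and 0 lower, and this held for the other scalings, the 1 CPM filter, the non-robust and older dispersion fits, an adjusted p under 0.1, the arcuate covariate and each left-out library. DESeq2 called 1 higher (Gal), and edgeR without a filter called 2 (Gal, adjusted p = 0.00560, and Crhbp, 0.00767), with 240 higher and 135 lower genes overall against 137 and 38. Family counterparts called higher were 1 by DESeq2 and 1 without a filter, and 0 to 1 with 1 library left out (1 without EB 3), against 0. Over all genes DESeq2 gave 232 higher and 119 lower, library totals 111 and 17, and the fits without vehicle 3, EB 1 and EB 2 gave 78 and 24, 87 and 20, and 107 and 24. The sign of the estimate was the same under every setting run for 20 of the 33 tested members. The others had main estimates from −0.21 (Vipr2) to 0.43 (Crhr2). By limma-voom Ghrh was −0.082 and Trhr 0.12, and with the arcuate covariate Ghrh was −0.19. Without vehicle 1 and EB 4 together Hcrt was 0.26, Pmch 0.043, Ghrh −0.10, Vipr2 0.13, Trhr 0.34, Hcrtr2 0.13 and Mchr1 −0.073. With 1 library left out the log2 change ran from −0.075 to 0.51 for Vip, −0.0029 to 0.25 for Sst, −0.0097 to 0.16 for Nts, −0.48 to 0.29 for Hcrt, −1.07 to 0.51 for Pmch, −0.30 to 0.26 for Ghrh and −0.082 to 0.012 for Adcyap1r1. It ran from −0.66 to 0.050 for Vipr2, −0.015 to 0.96 for Crhr2, −0.45 to 0.26 for Trhr, −0.25 to 0.0072 for Hcrtr2, −0.0035 to 0.47 for Mchr1 and −0.19 to 0.11 for Qrfpr. The cause was not tested. Members with few counts (Crh, Hcrtr1, Vip, Vipr1, Crhr2) are limited by depth as well as by 3 and 4 mice. No paired analysis was possible because each mouse has its own animal number and the groups share none.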
